A study of Mus musculus with 23 samples.

Results

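Sox10, Erbb3, Fabp7 and Foxd3 mark the glia that the neural crest sends along growing nerves, and they were followed here in the distal forelimb of E11.5 mouse embryos. All rows with these symbols in the table that sets Inv1DelCTCF against Inv1 were taken, which gave 4 genes of the 34682 listed. None of the 4 passed the test between the groups, and the change was too imprecise in Fabp7 and Foxd3 to exclude large differences either way. The series asks what happens when an enhancer cluster of the Epha4 domain is moved into a gene-dense region by inversion. Inv1 is a CRISPR/Cas9-engineered mouse mutant. By its name, Inv1DelCTCF carries the same inversion and a deletion at a CTCF site, whose position the labels do not give. The inversion is thus common to both groups, and the deletion is the difference that the names give. Any other difference between the groups, such as litter, cannot be told apart from the deletion. There were 3 libraries of Inv1 and 2 of Inv1DelCTCF, all of polyA RNA from micro-dissected distal forelimb. The other groups were 5 wild type libraries, 4 of Inv2, 3 of Inv3 and 3 of Inv4, whose tables against wild type list 72 to 79 genes and none of the 4 genes, so no value of them against wild type is given here. The series also has 3 Inv1 libraries of embryonic stem cells, which are not analysed here. The labels call every mutant "mutant", name G4 embryonic stem cells as the cell type of all samples, forelimbs included, and do not give zygosity. The design text calls the libraries biological replicates without saying whether embryos were pooled or came from different litters. The p-values reflect only the spread of these libraries as the fit estimated it.

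Schwann cell precursors are neural crest cells that travel with axons into the limb and later form the myelinating and non-myelinating glia of peripheral nerve. Sox10, an HMG-box transcription factor, and Foxd3, a forkhead factor, act in the crest and its glial descendants. Erbb3 is a receptor of the ERBB family that binds neuregulins, lacks strong kinase activity of its own and signals with its partner Erbb2. Axons present Nrg1, and glial precursors depend on it to survive and migrate. Fabp7 is a brain-type fatty acid-binding protein of radial glia and of glial precursors. Erbb3 is also known from many epithelia, so of these genes it is the least restricted to glia. Cell bodies of the sensory and motor neurons lie outside the limb, and only their axons enter it. In RNA of whole tissue, fewer cells of a type and less RNA per cell cannot be told apart.

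None of the genes lies on the chromosome of Epha4. In the GRCm38 annotation Sox10 is on chromosome 15, Erbb3 and Fabp7 are on chromosome 10 and Foxd3 is on chromosome 4, whereas Epha4 is on chromosome 1. Coordinates of the genes are not given, because that build is not the mm9 build of the submitters' notes. Within GENCODE M21, Sox10 and Fabp7 overlap no other gene. Erbb3 and Foxd3 each overlap 1 annotated microRNA gene on their own strand.

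Promoter sequence was at hand for Fabp7 and Foxd3, the genes with the fewest counts, and it is shown to set their base composition and motifs beside their values. The 250 bases before the start are from RefSeq on GRCm38.p6, plus strand, at chr10:57784673-57784922 for Fabp7 and at chr4:99656049-99656298 for Foxd3. Capitals mark matches to 6 motifs searched on both strands, chosen after the sequences had been seen. The SOX core was searched as ACAAAG and the octamer as ATGCAAAT. The cyclic AMP response element was searched as TGACGTCA and the E-box as CACGTG. The motif of NF-Y was searched as CCAAT. The core promoter box was searched as TATAAA.
Fabp7: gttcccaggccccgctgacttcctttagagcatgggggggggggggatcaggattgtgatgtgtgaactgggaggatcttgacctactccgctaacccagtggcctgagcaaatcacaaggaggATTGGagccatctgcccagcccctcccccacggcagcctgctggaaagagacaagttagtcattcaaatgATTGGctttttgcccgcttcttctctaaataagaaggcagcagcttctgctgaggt
Foxd3: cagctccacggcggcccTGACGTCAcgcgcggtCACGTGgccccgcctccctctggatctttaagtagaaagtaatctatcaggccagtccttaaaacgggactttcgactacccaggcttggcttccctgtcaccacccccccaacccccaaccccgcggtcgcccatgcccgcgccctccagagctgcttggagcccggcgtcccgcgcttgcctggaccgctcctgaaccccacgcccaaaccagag
Fabp7 held 2 copies of the NF-Y motif, both read on the other strand as ATTGG, found on either strand in 33.8% of 32851 windows of this length. Foxd3 held 1 cyclic AMP response element, found in 1.55% of windows, and 1 E-box, found in 6.02%. The 2 matches in Foxd3 do not overlap. Neither window held the SOX core, which 16.5% of windows hold, and no other motif matched. The windows differ in base composition, with 65.6% GC and 21 CpG in Foxd3 against 54.8% GC and 4 CpG in Fabp7, where the median window has 52.4% GC and 6 CpG. These matches are descriptions of sequence and say nothing of whether a factor binds there.

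The files hold comparisons between groups and no value per library. Each gene has a mean normalised count over the 5 libraries, a log2 fold change and its standard error (SE). The means of all genes add up to 3.02e+07, and the depth of single libraries is unknown. A group level was rebuilt from the mean and the fold change, as the 2 group means that give both. The sign was set from genes shared with the wild type tables, as described under the processing, and is written so that positive means higher in Inv1DelCTCF.

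Erbb3, the neuregulin receptor, was by far the most abundant of the 4 genes. In the authors' deposited table its mean normalised count was 926.8, and the rebuilt levels were 851.7 in Inv1 and 1039.6 in Inv1DelCTCF. The log2 difference was 0.29 per the authors' deposited table (SE 0.290, unadjusted p = 0.321, adjusted p = 0.556), a fold of 1.22 with a 95% interval of 0.823 to 1.81. The 2 group levels therefore differed by less than the error of the comparison.

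Sox10, the transcription factor of crest and glia, came nearest to a difference. It had a mean normalised count of 70.5 per the authors' deposited table and rebuilt levels of 54.8 in Inv1 and 93.9 in Inv1DelCTCF. Its log2 difference was 0.78 per the authors' deposited table (SE 0.408, unadjusted p = 0.0568), a fold of 1.71 with a 95% interval of 0.984 to 2.98 that includes no change. The authors' deposited table gives no adjusted p for Sox10, because the lowest mean with an adjusted p is 113.0. Adjusted over all 21940 rows with a p, its adjusted p was 0.369, and over rows with a mean of at least 10 it was 0.257. After subtraction of a trend with GC content and transcript length the log2 difference of Sox10 was 1.0003 (unadjusted p = 0.0141), with an adjusted p of 0.197 over rows with a mean of at least 10, so that no call was made.

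Foxd3, the forkhead factor of the crest, had few counts. Its mean normalised count in the authors' deposited table was 6.40, with rebuilt levels of 5.002 in Inv1 and 8.50 in Inv1DelCTCF. The log2 difference was 0.76 per the authors' deposited table (SE 1.01, unadjusted p = 0.447), and the 95% interval of the fold ran from 0.433 to 6.66. The point estimate is nearly that of Sox10, but the SE is more than the change itself.

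Fabp7, the fatty acid-binding protein, had the fewest counts of the 4. Its mean normalised count in the authors' deposited table was 4.42, and the rebuilt levels were 2.97 in Inv1 and 6.59 in Inv1DelCTCF. The log2 difference was 1.15 per the authors' deposited table (SE 1.21, unadjusted p = 0.343), the highest point estimate of the 4 genes and the least certain, with a 95% interval of the fold from 0.428 to 11.47. Foxd3 and Fabp7 have no adjusted p in that table.

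**Figure D1:**
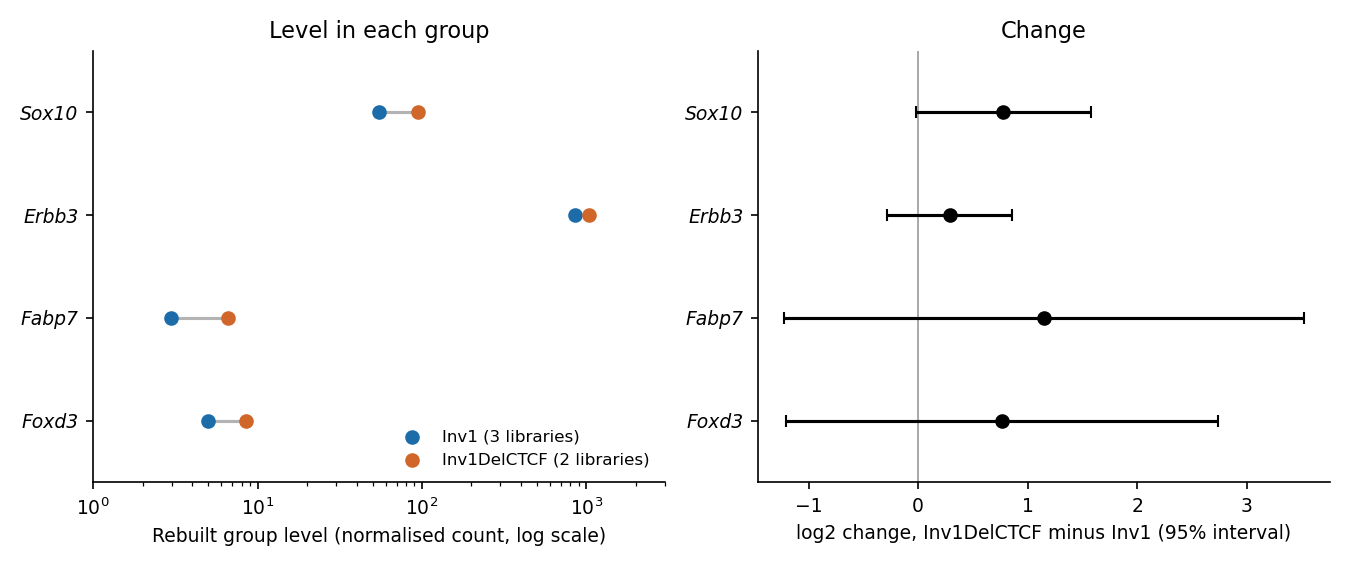
Left, rebuilt group level of each gene as a normalised count on a log scale, in Inv1 (blue, 3 libraries) and Inv1DelCTCF (orange, 2 libraries); right, the log2 change with its 95% interval from the deposited SE. All 4 points lie to the right of 0, and all 4 intervals include 0, that of Sox10 starting at -0.02.

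All 4 log2 changes were positive and none was called. Of the 11218 genes with an adjusted p, 11.7% were called at an adjusted p under 0.05, with 3.81% higher and 7.89% lower in Inv1DelCTCF. Of the 4 genes only Erbb3 has an adjusted p, so for the others no call was possible under the authors' adjustment. No member had an unadjusted p under 0.05 in the DESeq2 Wald test, where 14.5% of all rows with a p did, 5.89% higher and 8.58% lower. Over genes with an adjusted p, the log2 change fell with transcript GC content (Spearman correlation -0.52), and the cause of this was not tested. The GC content was 61.8% for Sox10, 51.2% for Erbb3, 42.6% for Fabp7 and 65.1% for Foxd3. After subtraction of the trend with GC content and length, 388 genes were called in place of 1312. Of these 204 were higher and 184 lower, in place of 427 and 885. Among the 15178 genes with a mean of at least 10, 50.1% had a positive change, and the median was 0.00. The genes come from the same 5 libraries, so their common sign is 1 observation on these libraries and not 4.

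Per base of transcript the order of the levels was Erbb3, Sox10, Fabp7, Foxd3. The mean normalised count per kilobase of the longest GENCODE transcript was 154.1 for Erbb3, 25.3 for Sox10, 5.02 for Fabp7 and 2.75 for Foxd3. Erbb3 was thus 6.08 times as abundant per kilobase as Sox10, and Sox10 was 5.05 times as abundant as Fabp7. Fabp7 and Foxd3 differed by a ratio of 1.82, and whether they differ was not tested. On the same scale Cdh19, a cadherin of Schwann precursors, stood at 3.98. Ngfr, the low-affinity neurotrophin receptor, stood at 346.5, and Epcam, a marker of surface ectoderm, at 621.6. Erbb3 therefore lay above Sox10 and Cdh19 in count per kilobase and below Ngfr and Epcam.

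The precision of the change differed among the genes beyond what their levels set. Erbb3 had an SE 2.88 times the median of the 1424 genes of like mean, and 1.404% of those genes had an SE at least as high. For Sox10 the ratio was 1.34, and 2.80% of 750 genes had an SE at least as high. Foxd3 and Fabp7 had ratios of 1.03 and 1.03, so their wide intervals are those usual at such low counts. Converted into a coefficient of variation within a group, the SE corresponds to 21.8% for Erbb3, against a median of 6.89% at its level. For Sox10 it corresponds to 28.7%, against 19.8%. These values are implied by the fitted SE and are not spreads measured between libraries. DESeq2 sets the spread of a gene partly from other genes, so values of different genes may not compare directly. Dopey1, the gene nearest to Erbb3 in mean, had an SE of 0.095 per the authors' deposited table, and Spag17, the nearest to Sox10, one of 0.294.

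Erbb3 belonged to a set of genes whose SE stood detached from the rest. Among 12539 genes whose mean reached 50, 183 (1.46%) had an SE at least 2.55 times the median at their level, and none lay between that ratio and 1.86. This set was noticed in the plot of SE against mean, and its limits were chosen after the values were seen. Whether the gap comes from the genes or from how the fit sets the spread of each gene was not tested. Among the gene lists it held Myog, a myogenic factor, with a ratio of 4.23, Msx1, a homeobox gene of limb mesenchyme, with 3.33, and Hbb-y, an embryonic globin, with 2.83. It also held Ttn (5.33), Neb (4.56), Acta1 (5.03) and Myh3 (7.95), genes of the contractile apparatus that were picked out after their values were seen. The set was not limited to muscle. Picked in the same way, Afp (13.6), the Y-linked Uty (6.97), Ldha (3.96), Col2a1 (3.87) and Shh (2.78) were in it too. None of the 10 Schwann precursor and glial genes whose mean reached 50 was in the set. Of the 168 genes of the set with an adjusted p, 2 were called, which is 1.19%, beside 11.7% of all genes with an adjusted p. The set was chosen by its high SE, which by itself lowers the chance of a call.

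**Figure D2:**
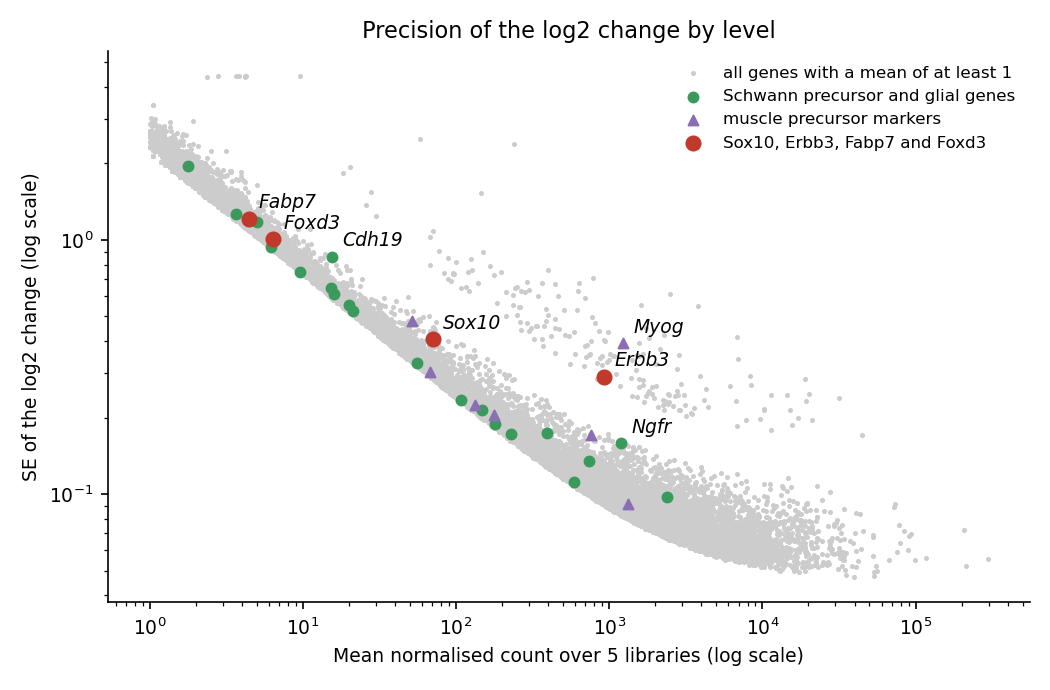
SE of the log2 change against the mean normalised count, both on log scales, for all genes with a mean of at least 1 (grey), the Schwann precursor and glial genes (green), the muscle precursor markers (purple triangles) and the 4 genes (red). Erbb3 and Myog lie in the detached upper band, Sox10 at the upper edge of the main band, and Fabp7 and Foxd3 inside it.

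These errors set how large a change had to be to reach the score of a called gene. The highest unadjusted p among called genes of the table was 0.00583, a Wald score of 2.76. To reach that score Erbb3 needed a 1.74-fold difference. For Sox10, Foxd3 and Fabp7, which could not be called at any fold under the authors' adjustment, the same score corresponds to 2.18-fold, 6.84-fold and 10.1-fold. The result is not evidence that the levels were equal.

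The other Schwann precursor and glial genes gave 1 call. Moxd1, a monooxygenase-like gene listed with neural crest and glial genes, rose to 1.51-fold, with rebuilt levels of 324.2 in Inv1 and 488.4 in Inv1DelCTCF. Its log2 difference was 0.59 per the authors' deposited table (SE 0.173, adjusted p = 0.0118). With fold changes shrunk by a normal prior its adjusted p was 0.263 and the call was lost. Of the 20 genes in the list 8 have an adjusted p, 1 was higher and 0 were lower, against 3.81% and 7.89% of all genes. By the DESeq2 Wald test 3 of 20 had an unadjusted p under 0.05, all higher. Of all rows with a p 14.5% did, with 5.89% higher, so the count of 3 is near the share of all rows. The median over the 8 genes was 0.05, beside -0.01 over all genes with an adjusted p.

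Other glial genes were not called. Pmp22, a peripheral myelin protein gene also made by mesenchyme, had a log2 difference of 0.29 (SE 0.135, adjusted p = 0.151), and Cdh19 had 1.11 (SE 0.860, no adjusted p) per the authors' deposited table. Ncam1, a neural cell adhesion gene, had -0.01 (SE 0.097), Ngfr 0.05 (SE 0.159), and Cnp, an enzyme gene of myelinating glia, 0.04 (SE 0.111) per the authors' deposited table. Of the genes of later Schwann cells, Dhh, Egr2 and S100b had low mean normalised counts of 5.05, 3.65 and 1.79 in the authors' deposited table. Others were not low there, with 181.0 for Mbp, a myelin gene, and 585.1 for Cnp. Over the 15 genes of the list with a mean of at least 10, 12 changes were positive, the median was 0.14 and the values ran from -0.28 to 1.11. Ncam1 and Ngfr, which cells other than glia also express, gave most of the summed level of the list, which was 5936 in Inv1 and 6408 in Inv1DelCTCF.

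The neuregulin pathway around Erbb3 gave 0 calls among the 9 of 14 genes with an adjusted p, beside 11.7% of all such genes. In the DESeq2 Wald test 2 of 14 had an unadjusted p under 0.05, beside 14.5% of all rows with a p. Both were lower, namely Erbb2 and Rnf41, where 8.58% of all rows were lower. Rnf41 had a log2 difference of -0.17 (SE 0.082, adjusted p = 0.153) per the authors' deposited table. Erbb2, the partner of Erbb3, had rebuilt levels of 3308 and 2970 in Inv1 and Inv1DelCTCF and a log2 difference of -0.16 (SE 0.069, adjusted p = 0.120) per the authors' deposited table. After subtraction of a trend with GC content and length its change was 0.00. Among the ligands, Nrg1 had a mean normalised count of 12.3 and a log2 difference of 0.78 (SE 0.666), and Nrg4 one of 78.3 and a change of 0.36 (SE 0.298) per the authors' deposited table. The proteases that can release neuregulins lay close to 0, with 0.01 (SE 0.062) for Adam10 and 0.02 (SE 0.065) for Adam17 per the authors' deposited table. Lrig1, a negative regulator of ERBB receptors, had -0.09 (SE 0.075), and Erbb2ip, an adaptor of Erbb2, had 0.10 (SE 0.075) there. The median of the 9 genes was -0.03. Egfr, a relative of Erbb3, had 0.22 (SE 0.139), and Erbb4, with a mean of 25.6, had 0.41 (SE 0.574) per the authors' deposited table.

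**Figure D3:**
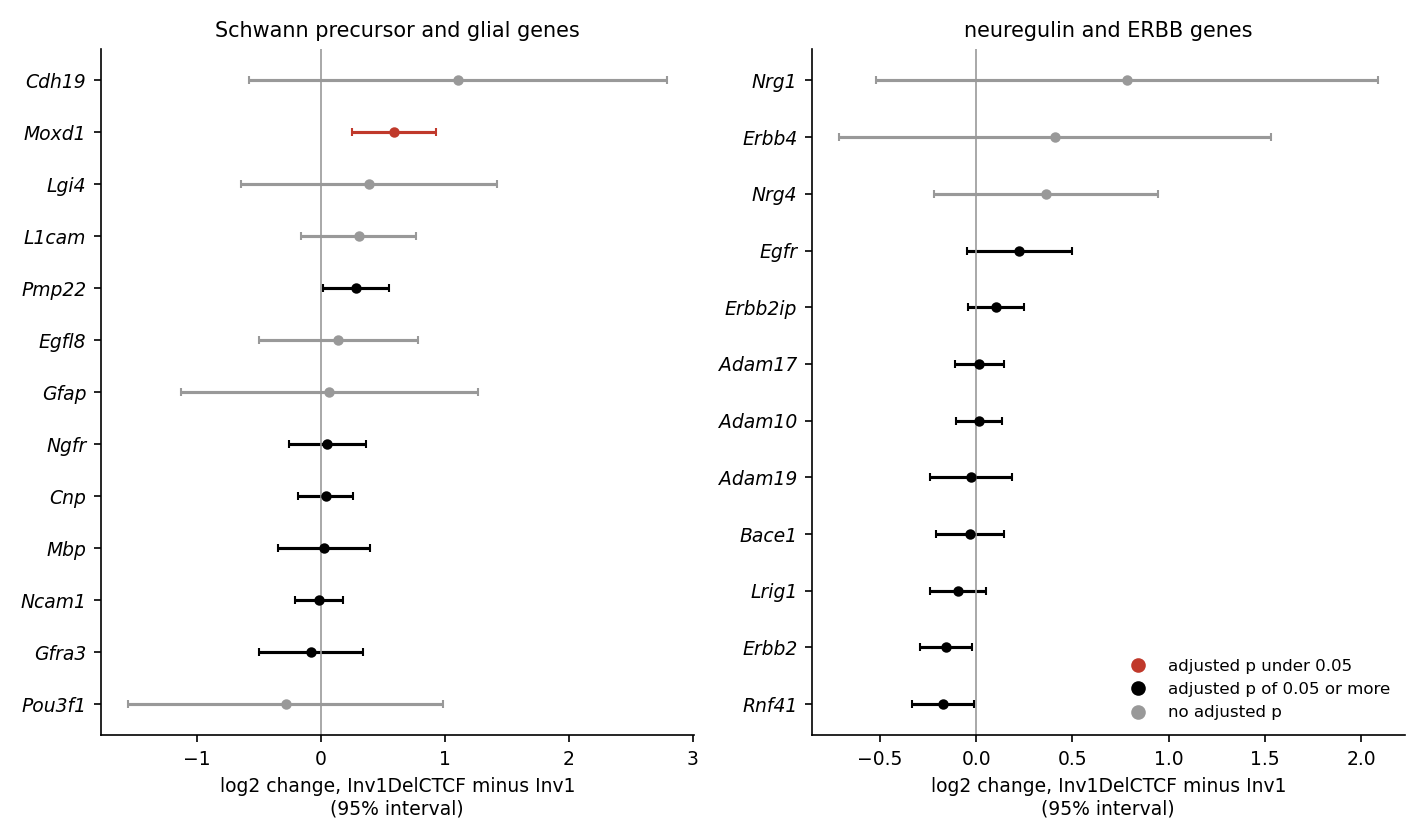
Log2 change with its 95% interval for the genes reported here with a mean of at least 10 in the Schwann precursor and glial list (left) and the neuregulin and ERBB list (right); red marks an adjusted p under 0.05, black one of 0.05 or more and grey no adjusted p. Moxd1 is the 1 red point.

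Regulators of the neural crest gave 0 calls among the 6 of 11 with an adjusted p, beside 11.7% of all such genes. In the DESeq2 Wald test 2 of 11 had an unadjusted p under 0.05, 1 in each direction, beside 14.5% of all rows. Sox9, a relative of Sox10 that is abundant in limb cartilage precursors, had a log2 difference of -0.05 (SE 0.098), and Sox8, the third member of that group, 0.06 (SE 0.194) per the authors' deposited table. Ets1 had -0.17 (SE 0.068, adjusted p = 0.0815) and Snai2 0.24 (SE 0.102, adjusted p = 0.106) there, and limb mesenchyme or vessels express both. Itga4, an integrin gene of migrating crest cells, had 0.20 (SE 0.135, adjusted p = 0.340) there. Tfap2a, a factor of both crest and surface ectoderm, had a mean normalised count of 59.9 and a change of -0.76 (SE 0.396, unadjusted p = 0.0537) per the authors' deposited table, opposite in sign to Sox10.

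FABP and FOXD relatives were mostly at very low counts. Fabp5, the abundant family member, had rebuilt levels of 3856 in Inv1 and 3302 in Inv1DelCTCF and a log2 difference of -0.22 (SE 0.109, adjusted p = 0.166) per the authors' deposited table. It was the 1 of 9 relatives with an adjusted p and was not called, with an unadjusted p of 0.0394 in the DESeq2 Wald test. Fabp3 had a mean normalised count of 43.8 and a change of 0.49 (SE 0.391), and Foxd2 a mean of 34.3 and a change of 0.25 (SE 0.485) there. Foxd1 had a mean of 2.98 and a change of 0.71 (SE 1.55) there.

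Melanoblasts also come from the crest and express Sox10. Of their 8 genes 0 were called, beside 11.7% of all genes with an adjusted p. By the DESeq2 Wald test 0 reached an unadjusted p under 0.05, beside 14.5% of all rows with a p. So few genes cannot show a difference from these shares. Kit, which other limb cells express as well, was the 1 gene with an adjusted p and had a log2 difference of -0.09 (SE 0.105, adjusted p = 0.614) per the authors' deposited table. Mitf, with a mean normalised count of 109.7, had -0.02 (SE 0.232) there. Dct, with a mean normalised count of 26.5, had 0.12 (SE 0.470) and Pmel, with 19.4, had 0.19 (SE 0.584) there. Tyr, Tyrp1 and Mlana, which define pigment cells, had means of 0.701, 1.82 and 1.57 there.

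Neuronal genes gave 0 calls among the 4 of 20 with an adjusted p, beside 11.7% of all such genes. In the DESeq2 Wald test 2 of the 19 with a p had an unadjusted p under 0.05, beside 14.5% of all rows. The 2 were neurofilament genes, and both were higher. Nefl had rebuilt levels of 33.9 in Inv1 and 64.0 in Inv1DelCTCF and a log2 difference of 0.92 (SE 0.356, unadjusted p = 0.00992, no adjusted p) per the authors' deposited table. Nefm had 172.3 and 225.3 and a change of 0.39 (SE 0.185, adjusted p = 0.160) there. Tubb3, a neuronal tubulin gene, had -0.14 (SE 0.165), Stmn2 0.11 (SE 0.157), and Dcx, which is not limited to neurons at this stage, -0.12 (SE 0.080) per the authors' deposited table. Neurog1 was listed at 0, and Neurod1 and Chat had means of 0.175 each.

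Among the genes that guide and feed limb nerves, both neuropilin receptors fell. Nrp2, a semaphorin receptor that limb mesenchyme expresses strongly, fell from a rebuilt level of 18209 in Inv1 to 15497 in Inv1DelCTCF, with a log2 difference of -0.23 (SE 0.054, adjusted p = 0.000875) per the authors' deposited table. Nrp1 fell by 0.22 in log2 units (SE 0.076, adjusted p = 0.0434) per the authors' deposited table. The call of Nrp1 was lost when the adjustment ran over every row with a p (adjusted p = 0.0824). Of the 14 genes 12 have an adjusted p, and 0 were higher and 2 lower, against 3.81% and 7.89% of all genes. The median of the 12 was 0.12. Sema3f and Sema3a, ligands of the neuropilins, had -0.17 (SE 0.105, adjusted p = 0.303) and 0.16 (SE 0.089, adjusted p = 0.254), and Cxcl12, a chemokine gene, had 0.17 (SE 0.075, adjusted p = 0.135) per the authors' deposited table. Ntf3, a trophic factor gene of sensory axons, had 0.35 (SE 0.145, adjusted p = 0.0936), and Gdnf, with a mean normalised count of 26.5, had 0.07 (SE 0.484) there.

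Among markers of other cells in the limb every called gene was lower in Inv1DelCTCF. Of all genes with an adjusted p, 7.89% were called lower and 3.81% higher. In the DESeq2 Wald test 5.89% of all rows were higher and 8.58% lower at an unadjusted p under 0.05. The part of these markers in the values of the 4 genes was not tested. Of the 9 surface ectoderm markers 4 fell, namely Krt8 (-0.74, SE 0.236), Krt18 (-0.56, SE 0.165), Cdh1 (-0.39, SE 0.113) and Krt5 (-0.30, SE 0.076), with adjusted p-values of 0.0220, 0.0117, 0.00952 and 0.00231 per the authors' deposited table. Krt15 had the largest difference of the list in size and the opposite sign, 0.77 (SE 0.305, unadjusted p = 0.0114, adjusted p = 0.0757) there, and was not called. Krt14 had -0.12 (SE 0.1002) and Trp63 -0.13 (SE 0.076) per the authors' deposited table. Their list's summed level was 12729 in Inv1 and 10816 in Inv1DelCTCF. After subtraction of the trend with GC content and length, 0 of the 9 were called. No macrophage marker was called, with 3 of the 7 with a p at an unadjusted p under 0.05 in the DESeq2 Wald test, all higher, and summed levels of 959.7 and 1227. Adgre1, under this symbol and under its older symbol Emr1, was listed at 0. Csf1r had 0.42 (SE 0.164, adjusted p = 0.0708), Cx3cr1 0.24 (SE 0.163), C1qb 0.27 (SE 0.213) and Ptprc 0.58 (SE 0.247, no adjusted p) per the authors' deposited table. Of 7 endothelial markers Cdh5 fell (-0.24, SE 0.079, adjusted p = 0.0275 per the authors' deposited table), with the call lost when the adjustment ran over every row or the trend was subtracted, and the summed level was 8574 in Inv1 and 7722 in Inv1DelCTCF. Kdr had -0.13 (SE 0.092), Pecam1 -0.12 (SE 0.106) and Tie1 -0.23 (SE 0.098, adjusted p = 0.109) per the authors' deposited table.

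Of the 7 erythroid markers Hba-x (-0.44, SE 0.102, adjusted p = 0.000823) and Hbb-bh1 (-0.28, SE 0.097, adjusted p = 0.0360) fell in the authors' deposited table, while Hba-a1 was listed at 0. Hbb-y had 0.16 (SE 0.170) and Alas2 0.03 (SE 0.106) there. The summed levels of the list were 87138 and 81959. Of the 9 limb mesenchyme markers Lhx2 (-0.41, SE 0.110, adjusted p = 0.00587) and Hoxa13 (-0.30, SE 0.102, adjusted p = 0.0330) fell per the authors' deposited table, with summed levels of 75048 and 74191, and 0 of the 9 were called after the trend was subtracted. The most abundant of them were not called, with 0.04 (SE 0.053) for Prrx1, 0.05 (SE 0.058) for Hoxd13, 0.01 (SE 0.053) for Lhx9 and 0.06 (SE 0.078) for Tbx5 per the authors' deposited table. By the DESeq2 Wald test 5 of the 9 had an unadjusted p under 0.05, all lower, beside 8.58% of all rows. Msx1 had the largest change of the list, -0.99 (SE 0.421, adjusted p = 0.103 there), and was not called. The median of the mesenchyme list was -0.14, and -0.01 after the trend was subtracted. None of 7 muscle precursor markers, 5 of them with an adjusted p, was called, beside 11.7% of all genes with an adjusted p. For these markers 0 reached an unadjusted p under 0.05 by the DESeq2 Wald test, beside 14.5% of all rows with a p. Their summed level was 3507 in Inv1 and 4133 in Inv1DelCTCF, and Myog, in the same detached set as Erbb3, had a log2 difference of 0.56 (SE 0.391, adjusted p = 0.374) per the authors' deposited table. Met had 0.06 (SE 0.091), Myod1 0.18 (SE 0.170) and Myf5 -0.01 (SE 0.205) there.

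**Figure D4:**
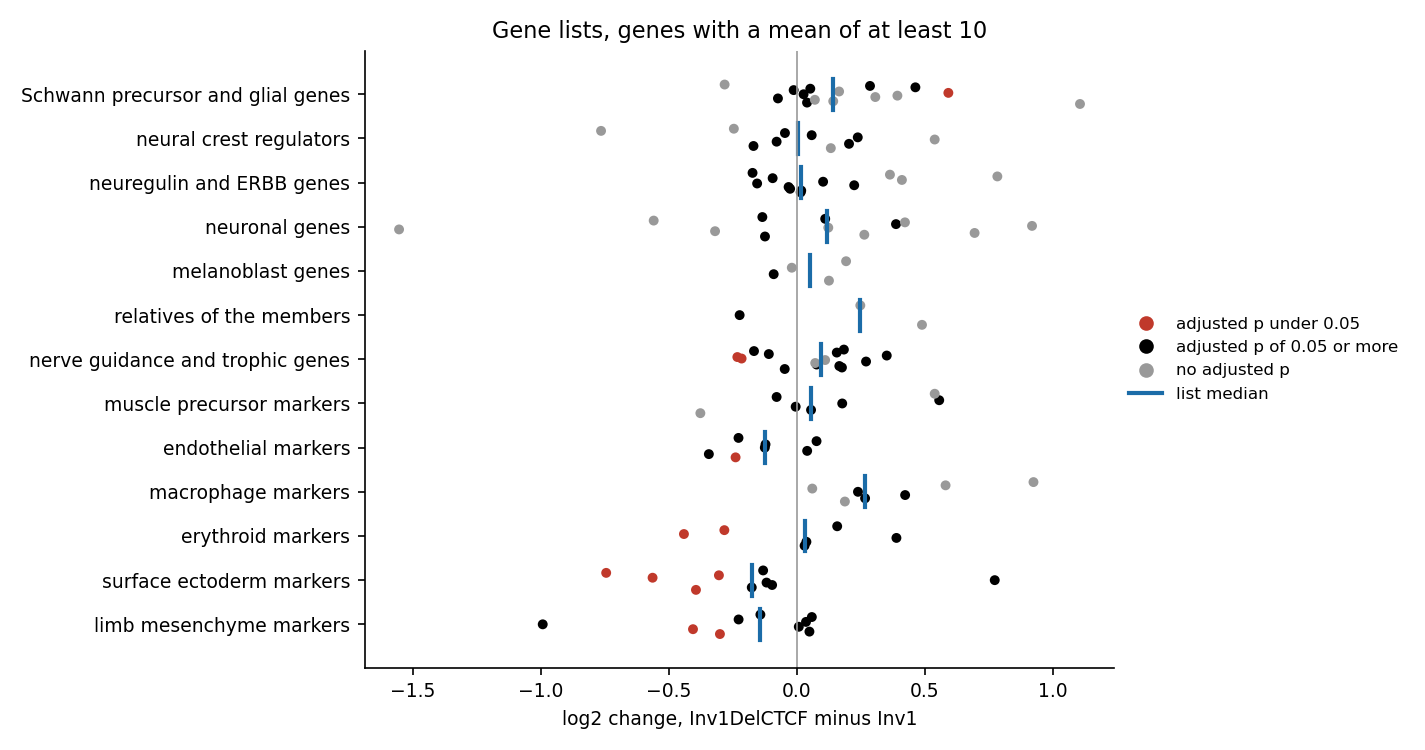
Log2 change of each gene with a mean of at least 10, by list; red marks an adjusted p under 0.05, black one of 0.05 or more, grey no adjusted p, and the blue bar is the list's median. Moxd1 is the 1 red point to the right of 0, and the medians run from -0.18 in the surface ectoderm list to 0.27 in the macrophage list.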

How the data were processed

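RNA of distal forelimbs was sequenced by the authors and, per the submitters' processing notes, processed with STAR, DESeq2 and build mm9. Versions, roles and the counting of reads are not given in the sources used here. Per the file headers, each deposited table gives a mean normalised count, which is a signal pooled over the libraries of a fit, a log2 fold change with its SE (log2), a Wald score, a p-value and an adjusted p-value. No sample has values of its own, so no model was refitted. Calls are those of the authors' DESeq2 Wald test at an adjusted p-value under 0.05.

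The headers do not name the numerator. Inv1 levels were computed for 57 genes whose mean reached 100, once from the wild type tables and once from the Inv1DelCTCF table under 4 sign conventions. The median absolute residual was 0.0165 (log2) with positive values meaning higher in the mutant and, in the second table, higher in Inv1, against 0.114 to 0.154 otherwise. The sign of the second table was turned accordingly.

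Genes of like mean are those within a fixed ratio of a gene's mean. Intervals cover 95% and come from the deposited SE. The coefficient of variation is computed from the deposited SE, as that of a negative binomial with equal library scales. GC content and length are of the longest GENCODE M21 transcript, found for 96.9% of genes tested and 96.4% of those called. The scripts were tested on simulated data. The 4 genes and all lists were chosen with earlier results of these data known. By rule the text names the 4 genes, every called gene of a list, in each list up to 4 genes of highest mean, and the genes nearest in level to Sox10 and Erbb3. The other genes named were chosen after their values were seen. Some genes of the glial list are counted in its totals but not reported here. RefSeq promoters matched 2 of the 4 genes. Alternatives covered thresholds, the set adjusted over, centring, a trend and shrinkage. The work used matplotlib 3.10.9, SciPy 1.17.1, numpy 2.4.6 and pandas 2.3.3 under Python 3.11.15.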

Additional observations from a re-analysis of the deposited data

How the results depend on the processing

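Sox10, Erbb3, Fabp7 and Foxd3 kept a positive change under each alternative run, and none was called. Erbb3 alone had an adjusted p in every run. Sox10 had one only over every row or over rows with a mean of at least 10, and Fabp7 and Foxd3 only over every row. In the other runs these genes could not be called. Thresholds, the set adjusted over and the prior cannot turn a sign. With the trend in GC content and length subtracted, Sox10 had 1.0003 (unadjusted p = 0.0141, adjusted p = 0.197 over rows with a mean of at least 10, a pairing of choices made after seeing the data), Erbb3 0.35, Fabp7 1.04 and Foxd3 1.04. A normal prior with an SD of 0.134 moved them to 0.08, 0.05, 0.01 and 0.01. The sign convention held with a minimum mean of 300 (residual 0.0124) and of 20 (0.0199). Called genes numbered 1312 (427 higher, 885 lower). They were 576 (179 and 397) at 0.01, with 682 higher at 0.1, 396 (129 and 267) with the prior, and 388 (204 and 184) after the trend, 303 of them called before. With the trend subtracted they were 348 (190 and 158) over rows with a mean of at least 10 and 282 (150 and 132) over every row with a p. By list, the calls moved as follows. At 0.1 they were 2 for glia, 1 for crest and 1 for macrophages. At 0.01 they were 0 for glia and endothelium, 1 for guidance, erythroid and mesenchyme and 2 for ectoderm. With the prior they were 0 for glia, endothelium and mesenchyme and 1 for guidance, erythroid and ectoderm. Over every row they were 1 for guidance, erythroid and mesenchyme and 0 for endothelium. Guidance had 1 over rows with a mean of at least 10 and 1 when centred. After the trend they were 0 for endothelium, ectoderm and mesenchyme and 1 for macrophages, and with both wider adjustments 0 for endothelium, ectoderm and mesenchyme and 1 for guidance, and with every row 1 for erythroid. The cause was not tested. No paired analysis was possible because the files hold no values per library, and for the same reason no library could be left out. A mean under 10 limits Fabp7 and Foxd3.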
